A study of Mus musculus with 6 samples.

Results

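Endothelial cells of brain capillaries are joined by tight and adherens junctions, suppress transcytosis and carry nutrient and efflux transporters, which together form the blood-brain barrier. Astrocyte endfeet cover the outer wall of these vessels, so that astrocytes and endothelial cells are neighbours in the tissue and in the dissociated cell suspension. The genes described here are the junction proteins, growth factor receptors, transcription factors, surface proteins, secreted factors and transporters by which brain endothelium is usually recognised. They form a set of 36 genes, chosen by name from the 45777 genes of the expression table with earlier results of these data known. All 36 were found with a read count above 0 in all 6 samples, as were 22337 genes in all.

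RNA sequencing was performed on astrocytes sorted for tdTomato from brains of male Aldh1l1 CreERT2; tdTomato fl/fl mice of C57BL/6 background, in which Cre is driven by the Aldh1l1 promoter and tamoxifen, given at 75 mg/kg on 5 days, starts the red fluorescent label. The Cre driver, the reporter and tamoxifen were common to both groups, and the sample labels give the genotype as WT. At 8 weeks of age, the hyperglycemic group received a single intraperitoneal dose of streptozotocin (STZ, 150 mg/kg), which destroys insulin-producing cells, and the normoglycemic group received citrate buffer (vehicle). Each group comprised 3 samples, each pooled from 3 mice, so the spread reported below is the spread between pools. Total counts ranged from 52529048 to 58749115 per sample, and the 3-count floor lay between 0.0511 and 0.0571 CPM (counts scaled to library size). Within each group, no samples were duplicates of each other. Astrocyte markers were high in every sample, with a summed level of 8 genes between 6096 and 7087 FPKM (fragments scaled to transcript length and library size), with Slc1a3 between 1267 and 1446 FPKM and Aldh1l1 between 116 and 152 FPKM. The 6 markers of choroid plexus and ependyma, mostly Ttr, summed to 4285, 12117 and 12906 FPKM in the vehicle samples and 8561, 6973 and 11786 FPKM in the STZ samples, above the astrocyte sum in all samples except vehicle 1. The 36 genes of the set together amounted to between 587 and 1114 FPKM, of which Slco1c1, Mfsd2a and Pltp made up the greater share. Slco1c1 is also a gene of astrocytes, so this sum does not measure endothelial RNA.

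Promoters of genes that vary together may hold shared motifs, and 4 promoters are shown here as examples, that of Nostrin for its motif letters. Cldn5 (chr16:18776597-18776896, plus strand) encodes the main claudin of the barrier and followed the common pattern of the set. Nostrin (chr2:69135550-69135849, plus strand) followed it and holds the letters of the ETS family, Ctla2a (chr13:60936576-60936875, minus strand) varied most steeply, and Slco1c1 (chr6:141524104-141524403, plus strand) did not follow the set. Each window runs 5′ to 3′ from 250 bases before to 50 bases after an annotated start in RefSeq, build GRCm38.p6. Capitals mark GGAAGT or CCGGAA (ETS family) and ATTGTT (SOX family) on either strand.
Cldn5: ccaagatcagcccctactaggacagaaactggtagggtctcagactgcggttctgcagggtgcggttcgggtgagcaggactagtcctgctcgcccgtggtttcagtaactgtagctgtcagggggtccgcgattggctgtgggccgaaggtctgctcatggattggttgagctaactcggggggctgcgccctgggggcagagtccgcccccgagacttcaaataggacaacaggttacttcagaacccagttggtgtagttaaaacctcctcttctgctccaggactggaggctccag
Nostrin: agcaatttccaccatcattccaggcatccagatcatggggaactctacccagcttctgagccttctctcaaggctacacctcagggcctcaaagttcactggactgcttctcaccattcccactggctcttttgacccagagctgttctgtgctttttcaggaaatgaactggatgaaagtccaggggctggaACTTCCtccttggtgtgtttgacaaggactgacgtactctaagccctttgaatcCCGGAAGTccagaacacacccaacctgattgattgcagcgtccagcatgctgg
Ctla2a: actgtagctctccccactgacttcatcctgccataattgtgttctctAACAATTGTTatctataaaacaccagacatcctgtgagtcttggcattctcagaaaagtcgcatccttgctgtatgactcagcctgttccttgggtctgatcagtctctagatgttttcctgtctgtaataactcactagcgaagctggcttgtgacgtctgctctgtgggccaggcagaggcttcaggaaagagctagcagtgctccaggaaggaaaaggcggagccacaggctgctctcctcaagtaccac
Slco1c1: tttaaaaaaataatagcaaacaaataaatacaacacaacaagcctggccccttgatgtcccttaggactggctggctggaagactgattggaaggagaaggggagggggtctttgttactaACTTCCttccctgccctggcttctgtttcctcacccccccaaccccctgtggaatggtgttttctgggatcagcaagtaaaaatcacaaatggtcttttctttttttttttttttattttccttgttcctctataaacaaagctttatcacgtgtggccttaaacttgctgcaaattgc
The Nostrin window held GGAAGT at 2 places and CCGGAA at 1, and the second GGAAGT shares its first bases with CCGGAA. The Ctla2a window shown held ATTGTT at 2 places, which overlap each other on opposite strands. The window of another annotated start of Ctla2a (chr13:60936517-60936816, minus strand) held ATTGTT at 0 places. The Slco1c1 window held 1 GGAAGT, and the Cldn5 window held neither of the ETS motifs nor ATTGTT. Windows were found for 24 of the 36 genes, 31 windows in all. All 36 genes are among the tested genes, so that shares are given for the 31 windows, for the 19491 windows of tested genes and for all 32851 windows, in this order. GGAAGT was in 29.0%, 25.3% and 23.8%, and CCGGAA in 9.68%, 21.3% and 14.9%. ATTGTT was in 19.4%, 7.10% and 10.7%, and 4 further motifs were searched on both strands. The GATA family motif AGATAA was in 12.9%, 7.74% and 11.2%, and TGTTTAC (FOX family) in 3.23%, 2.97% and 3.65%. CCACACCC (KLF family) was in 6.45%, 3.66% and 3.56%, and TATAAA in 22.6%, 8.84% and 13.6%. The median GC content was 53.7%, 58.3% and 52.7%. These shares rest on few windows, some of which overlap each other, and they describe letters only.

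Levels within the set spanned a wide range. Of the 36 genes, 23 had a mean under 5 FPKM over the 6 samples, 8 lay between 5 and 50 FPKM and 5 were at 50 FPKM or above. The 5 most abundant were Slco1c1, Pltp, Mfsd2a, Itm2a and Ly6c1. The lowest was Erg, with counts of 12, 6 and 26 in the vehicle samples 1, 2 and 3 and 83, 61 and 27 in the STZ samples 1, 2 and 3, and 6 was the lowest count of any of the genes. All values per sample below are in this order, with the vehicle samples first.

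**Figure D1:**
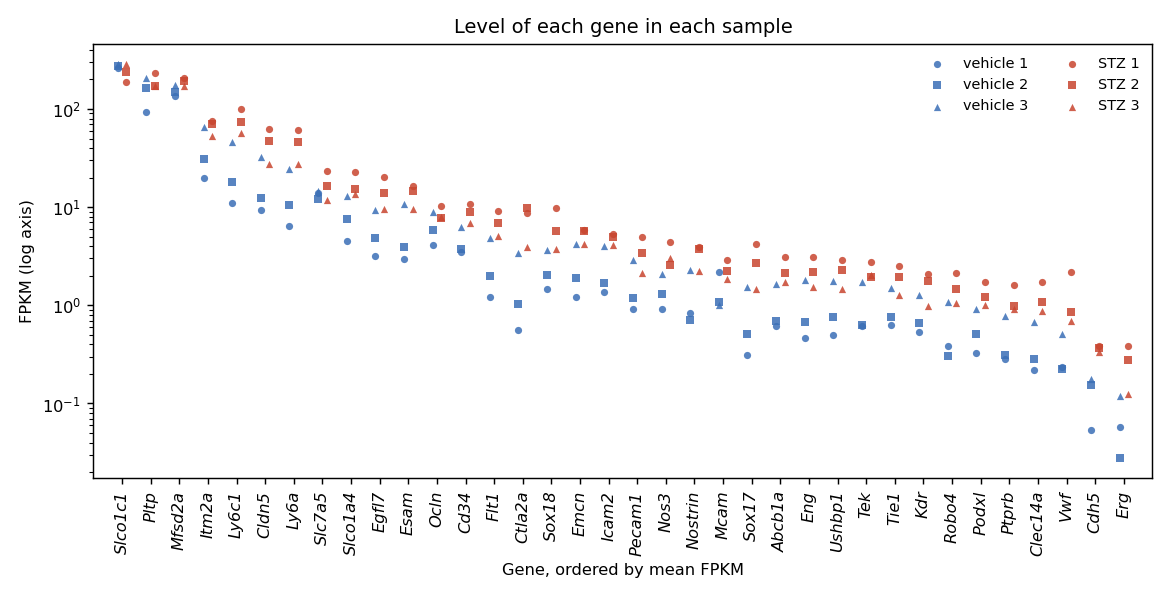
Level of each of the 36 genes (x axis, ordered by mean) in FPKM on a log axis (y axis), with 1 point per sample, the color giving the group and the marker shape the replicate. Slco1c1, Pltp and Mfsd2a lay at 93.9 FPKM or above in all samples, while Erg and Cdh5 lay at 0.382 FPKM or below in all samples.

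A single pattern ran through most of the set. Each gene's log2 CPM was centred on its own mean over the 6 samples and compared with the mean of the other genes. Of the 36 genes, 32 followed this mean with a Pearson correlation of at least 0.8 over the 6 samples (lowest 0.894, median 0.985), and 28 of these reached 0.95. These correlations are descriptions, since all genes share the same 6 libraries. The mean of the 32 genes was −1.29, −0.91 and 0.22 in the vehicle samples and 1.08, 0.67 and 0.23 in the STZ samples, on the centred log2 CPM scale. Vehicle samples 1 and 2 were thus low, STZ sample 1 was highest, and vehicle sample 3 lay beside STZ sample 3. The group means were −0.66 ± 0.78 (SD, n = 3) for vehicle and 0.66 ± 0.43 (SD, n = 3) for STZ. In bulk samples, fewer cells of a type and less RNA per cell cannot be told apart. This level therefore cannot be divided between the number of endothelial cells, their transcription and RNA of these genes from other sources, the sorted astrocytes included. The source of this RNA was not tested.

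The order of the samples was nearly the same gene by gene. All 32 genes were higher in vehicle sample 3 and in each STZ sample than in vehicle samples 1 and 2. The highest sample was STZ 1 for 31 of the 32, the exception being Ctla2a, which was highest in STZ 2. In 28 of the 32, STZ 1 exceeded STZ 2, which exceeded STZ 3. Vehicle sample 3 was above STZ sample 3 for 15 of the 32 and above STZ sample 2 for 1. With each gene centred within its group, 30 of the 32 genes had a correlation of at least 0.8 (median 0.972). The others were Cdh5 at 0.695 and Erg at 0.791, the lowest expressed genes of the set. The 32 genes were chosen by their correlation over these same samples, so a high value here was partly given by the choice. Of all 36 genes, 5 were under 0.8 with this centring, against 4 without it. Among the 32 genes, the range of log2 CPM over the samples had a median of 2.35, against 0.62 for all tested genes.

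**Figure D2:**
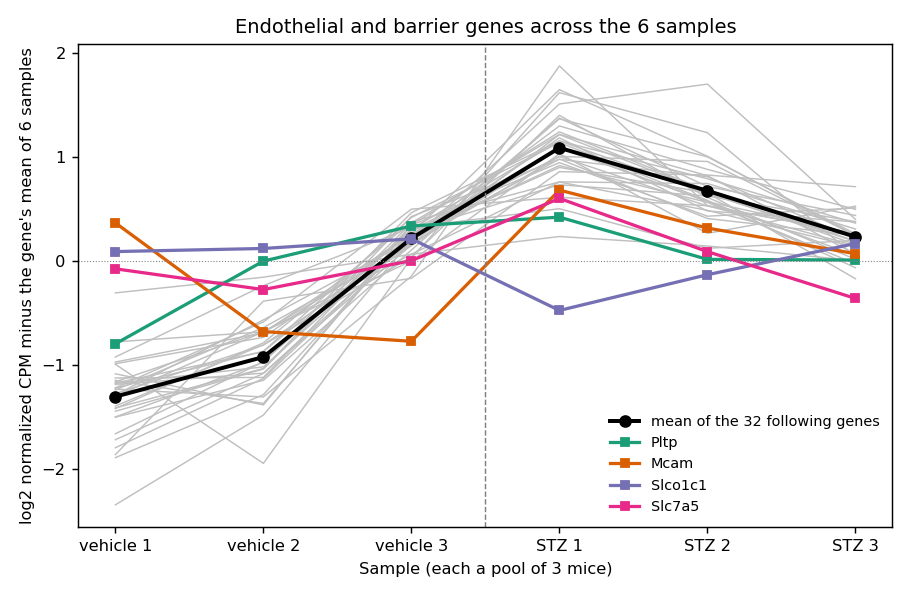
Log2 normalized CPM of each gene minus its mean over the 6 samples (y axis) in each sample (x axis), with thin gray lines for the 32 genes that followed the common pattern, a black line for their mean and colored lines for the 4 that did not. Lines join the values of 1 gene and imply no order of the samples, and the gray lines share the low values of vehicle 1 and 2 and the high value of STZ 1.

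The comparison of STZ with vehicle asks whether these genes differ in astrocyte samples of hyperglycemic mice. The fold change (log2, STZ over vehicle) was positive for 35 of 36 genes with a median of 1.14, beside a median of 0.01 over all tested genes. With edgeR's quasi-likelihood test, 0 of the 36 passed an adjusted p under 0.05 with a fold change over 1.5 (Benjamini-Hochberg adjusted p from 0.301 to 0.763), and 0.0224% of all tested genes did. At an unadjusted p under 0.05 in the same test, 26 of 36 were higher in STZ and 0 lower. Of all 22337 tested genes, 5.63% were higher and 1262 genes were lower at this level. DESeq2 called 7 of 36 higher, where it called 0.654% of all tested genes, and these were Nos3, Cd34, Sox18, Ptprb, Nostrin, Abcb1a and Clec14a. The groups did not overlap, with STZ higher, for 17 of 36 genes, against 8.64% of all tested genes. The genes vary together between samples, so that these counts are not counts of independent events. The set was chosen with earlier results of these data known, so the shares beside them are descriptions and no test of the set. The counts also depended on single samples. Without vehicle sample 3, 32 genes had an unadjusted edgeR p under 0.05 and DESeq2 called 31. Without STZ sample 1 the numbers were 9 and 0, and without vehicle sample 2 they were 11 and 0. DESeq2 called 2 genes without vehicle sample 1 and 1 gene without STZ sample 2, and the unadjusted count without vehicle sample 1 was 17.

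**Figure D3:**
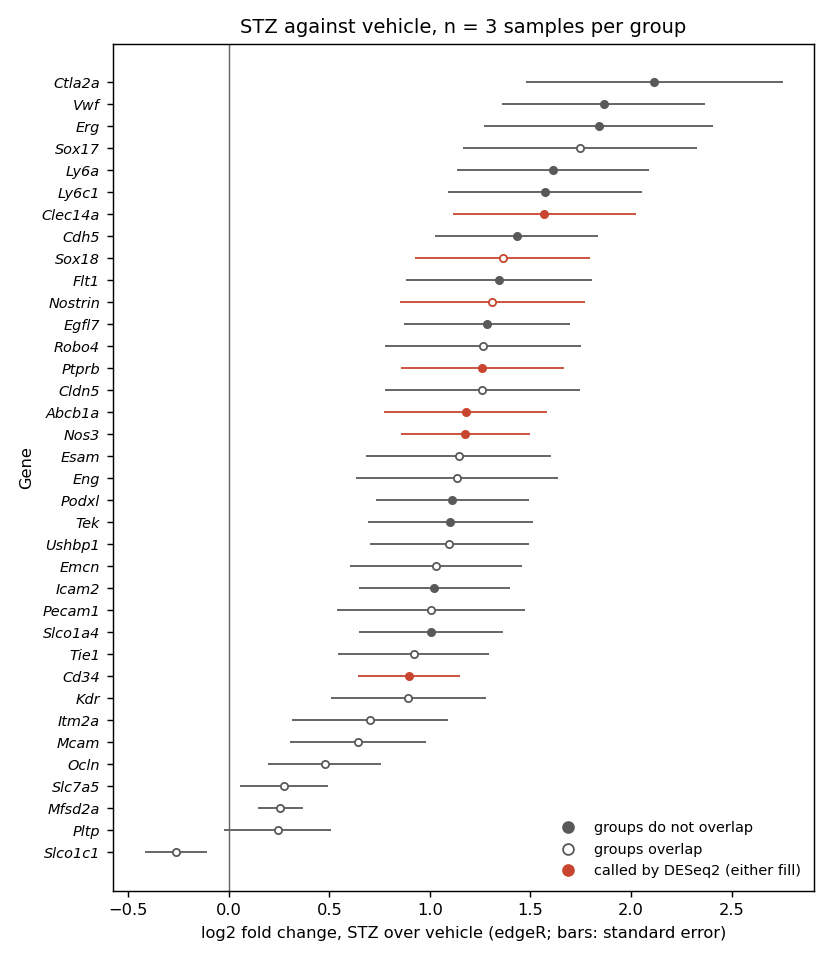
Log2 fold change of each gene, STZ over vehicle, from edgeR (x axis, bars are standard errors), with genes on the y axis, filled points where the groups do not overlap and red points for the 7 genes called by DESeq2. All points except that of Slco1c1 lie to the right of 0, and edgeR called 0 of the 36.

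Among the 7 junction and adhesion genes, 6 followed the pattern, and the median log2 fold change was 1.02. At an unadjusted edgeR p under 0.05, 4 of the 7 were higher in STZ, as were 5.63% of all tested genes. Cldn5 measured 9.27, 12.4 and 32.7 FPKM in the vehicle samples and 62.0, 46.7 and 27.3 FPKM in the STZ samples. STZ 1 and 2 were above all vehicle samples and STZ 3 was below vehicle 3, so the groups overlapped (log2 fold change 1.26 ± 0.48 (SE), edgeR adjusted p = 0.405). Cdh5, or VE-cadherin, which builds the endothelial adherens junction, had counts of 13, 35 and 45 in vehicle and 97, 91 and 85 in STZ. Its groups did not overlap, and its level was low, with 0.128 ± 0.066 FPKM in vehicle and 0.363 ± 0.023 FPKM in STZ (SD, n = 3; log2 fold change 1.43, edgeR unadjusted p = 0.00845, adjusted p = 0.306). Icam2, an adhesion molecule for leukocytes, ran from 1.36 to 4.01 FPKM in vehicle and from 4.14 to 5.37 FPKM in STZ. Ocln, the tight junction protein occludin, had a shallower course, from 4.10 to 8.94 FPKM in vehicle and from 7.71 to 10.2 FPKM in STZ. Pecam1 and Esam, adhesion molecules of endothelial contacts, measured 1.66 ± 1.08 and 5.88 ± 4.24 FPKM in vehicle and 3.51 ± 1.44 and 13.6 ± 3.62 FPKM in STZ (SD, n = 3).

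Mcam, an adhesion molecule of endothelial and mural cells, was the junction gene that departed from the set (r = 0.339). Its levels were 2.18, 1.07 and 1.0 FPKM in vehicle and 2.89, 2.23 and 1.85 FPKM in STZ. Vehicle 1, the lowest sample for most of the set, was the highest vehicle sample for Mcam, and vehicle 3 was its lowest sample. Centred within the groups, its correlation with the others was −0.38. Its log2 fold change was 0.64 ± 0.34 (SE; edgeR adjusted p = 0.515). Oligodendrocyte markers were also high in vehicle 1 and STZ 1, with a summed level over 6 genes of 636, 224 and 207 FPKM in vehicle and 1028, 244 and 304 FPKM in STZ, and their part in the Mcam values was not tested.

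All 7 receptor and phosphatase genes followed the pattern, and their median log2 fold change was 1.14. At an unadjusted edgeR p under 0.05, 5 were higher in STZ, against 5.63% of all tested genes. Ptprb, the endothelial phosphatase that acts on the angiopoietin receptor Tek and on VE-cadherin, measured 0.281, 0.312 and 0.786 FPKM in vehicle and 1.62, 0.987 and 0.907 FPKM in STZ. Its groups did not overlap, and vehicle 3 lay closer to STZ 3 than to the other vehicle samples (log2 fold change 1.26 ± 0.41 (SE), edgeR adjusted p = 0.349, DESeq2 adjusted p = 0.019). Flt1 and Kdr, receptors for vascular endothelial growth factor, measured 2.67 ± 1.91 and 0.827 ± 0.40 FPKM in vehicle and 7.06 ± 2.0 and 1.61 ± 0.57 FPKM in STZ (SD, n = 3). Tek itself ran from 0.609 to 1.74 FPKM in vehicle and from 1.93 to 2.77 FPKM in STZ without overlap, while its relative Tie1 overlapped, with 0.627 to 1.49 FPKM and 1.27 to 2.49 FPKM. Eng, a co-receptor of transforming growth factor beta, and Robo4, an endothelial guidance receptor, also overlapped, with log2 fold changes of 1.14 and 1.26. Eng shares genomic sequence with Fpgs, whose count was 281% of that of Eng, and the strand setting of the counting was not given in the sources used here. Fpgs itself had a log2 fold change of 0.07. In all, 14 of the 36 genes overlap another annotated gene, and apart from Fpgs and the partner of Pltp these had at most 8.96% of the count of the endothelial gene.

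The transcription factors had the highest median log2 fold change of the 6 role groups, at 1.75. All 3 were higher in STZ at an unadjusted edgeR p under 0.05, as were 5.63% of all tested genes. Erg, an ETS factor that maintains endothelial identity, did not overlap between the groups at the counts given above, although STZ 3 was within 1 count of vehicle 3 before scaling (log2 fold change 1.84 ± 0.57 (SE), edgeR adjusted p = 0.334). Sox17 and Sox18, SOX factors of the developing and mature vessel wall, overlapped between the groups on the CPM scale. Sox17 had the highest correlation with the rest of the set, at 0.999. Its levels were 0.312, 0.507 and 1.53 FPKM in vehicle and 4.20, 2.69 and 1.46 FPKM in STZ. Sox18 was called by DESeq2 (adjusted p = 0.017) with 2.39 ± 1.15 FPKM in vehicle and 6.43 ± 3.17 FPKM in STZ (SD, n = 3), and had an edgeR adjusted p of 0.347.

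All 7 surface proteins followed the pattern, and 6 were higher at an unadjusted edgeR p under 0.05, against 5.63% of all tested genes. The groups did not overlap for 5, with STZ higher, against 8.64% of all tested genes. Ly6c1, a lipid-anchored surface protein of endothelium and some blood cells, measured 10.9, 18.0 and 46.4 FPKM in vehicle and 101, 74.0 and 57.1 FPKM in STZ. Ly6a, or Sca-1, measured 6.45, 10.5 and 24.7 FPKM in vehicle and 60.6, 46.3 and 27.3 FPKM in STZ. Both were higher in each STZ sample than in each vehicle sample, with log2 fold changes of 1.57 ± 0.48 and 1.61 ± 0.48 (SE; edgeR adjusted p = 0.329 and 0.320). Ly6c2, a near copy of Ly6c1 that myeloid cells use, ran at 5.01, 4.23 and 15.4 FPKM in vehicle and 25.9, 23.4 and 11.7 FPKM in STZ, so reads of the pair may be divided with error. It was the one of 6 tested relatives of the set with an unadjusted edgeR p under 0.05, and Ly6g, Slco1a5, Ly6i and Ctla2b had log2 fold changes of 0.93, −0.18, 1.30 and 0.58. Itm2a, a membrane protein of brain endothelium, measured 19.8, 31.0 and 65.7 FPKM in vehicle and 74.6, 70.0 and 52.9 FPKM in STZ. Vehicle 3 was above STZ 3, and the log2 fold change of 0.70 ± 0.39 (SE; edgeR adjusted p = 0.530) was the lowest of this group.

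Cd34, a sialomucin of endothelial and progenitor cells, measured 3.52, 3.77 and 6.35 FPKM in vehicle and 10.9, 8.87 and 6.85 FPKM in STZ. The groups did not overlap, and the difference was called by DESeq2 (adjusted p = 0.016) but not by edgeR (log2 fold change 0.90 ± 0.25 (SE), adjusted p = 0.306). The other sialomucins, Emcn and Podxl, measured 2.45 ± 1.59 and 0.586 ± 0.30 FPKM in vehicle and 5.24 ± 0.93 and 1.32 ± 0.37 FPKM in STZ (SD, n = 3). Clec14a, a lectin of the endothelial surface, ran from 0.222 to 0.679 FPKM in vehicle and from 0.880 to 1.72 FPKM in STZ and had a DESeq2 adjusted p of 0.0087 and an edgeR adjusted p of 0.311.

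The 7 genes for nitric oxide and secreted or intracellular factors had a median log2 fold change of 1.28, and 6 followed the pattern. These 6 were higher in STZ at an unadjusted edgeR p under 0.05, against 5.63% of all tested genes. Vwf, the von Willebrand factor released from endothelial granules, measured 0.237, 0.226 and 0.508 FPKM in vehicle and 2.17, 0.847 and 0.693 FPKM in STZ. STZ 1 stood far above the other samples (log2 fold change 1.86 ± 0.50 (SE), edgeR unadjusted p = 0.00672, adjusted p = 0.301), and without STZ 1 the log2 fold change was 1.19. Nos3, the endothelial nitric oxide synthase, ran from 0.918 to 2.07 FPKM in vehicle and from 2.60 to 4.45 FPKM in STZ. It was called by DESeq2 (adjusted p = 0.0056) and in 4 of the 6 DESeq2 fits that left out a sample, the most of any of the 7 called genes (edgeR adjusted p = 0.301). Nostrin, which guides the traffic of that enzyme, overlapped between the groups, at 0.715 to 2.28 FPKM in vehicle and 2.25 to 3.91 FPKM in STZ, and its DESeq2 call (adjusted p = 0.0497) held in 1 of the 6.

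Ctla2a, a cysteine protease inhibitor, was the steepest member of the set. Its levels were 0.567, 1.04 and 3.38 FPKM in vehicle and 8.79, 9.91 and 3.96 FPKM in STZ, a span of 17.5-fold from lowest to highest. Per unit of the mean of the other genes it moved by 1.93 on the log2 scale, and its log2 fold change of 2.12 ± 0.64 (SE) was the highest of the set (edgeR adjusted p = 0.324). Egfl7, a secreted factor of the vessel wall, and Ushbp1 measured 5.75 ± 3.17 and 1.02 ± 0.67 FPKM in vehicle and 14.7 ± 5.47 and 2.23 ± 0.73 FPKM in STZ (SD, n = 3). Ctla2a and Sox17 were described beyond the rule for named genes, after their values were seen.

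Pltp, the phospholipid transfer protein, departed from the set by a small margin (r = 0.786 against the limit of 0.8). Its levels were 93.9, 164 and 207 FPKM in vehicle and 231, 173 and 170 FPKM in STZ. Vehicle 1 was low and STZ 1 high, as in the rest of the set, but vehicle 2 lay near STZ 2 and 3, and vehicle 3 was above both. The log2 fold change was 0.24 ± 0.27 (SE; edgeR adjusted p = 0.763), and without vehicle 1 it was −0.019. Pltp shares genomic sequence with Ctsa, whose count was 131% of that of Pltp and whose log2 fold change was −0.11. On the log2 FPKM scale the correlation of Pltp was 0.815, so that 3 genes departed on that scale.

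The 5 transporters were the most divided group, with 3 that followed the pattern and a median log2 fold change of 0.27. Abcb1a, or P-glycoprotein, the drug efflux pump of brain capillaries, followed closely (r = 0.996), with 0.613, 0.691 and 1.66 FPKM in vehicle and 3.14, 2.16 and 1.72 FPKM in STZ. The groups did not overlap (log2 fold change 1.18 ± 0.41 (SE), edgeR adjusted p = 0.370, DESeq2 adjusted p = 0.037). Slco1a4, an organic anion carrier, followed as well, at 4.53 to 12.9 FPKM in vehicle and 13.5 to 23.0 FPKM in STZ without overlap. Its near relative Slco1a1 is listed at 0 in all samples.

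Mfsd2a, the lysolipid carrier that brings docosahexaenoic acid into the brain, kept the order of the set at a much smaller span. Its levels were 134, 150 and 175 FPKM in vehicle and 207, 192 and 172 FPKM in STZ, and vehicle 3 was just above STZ 3. The correlation with the set was 0.987 while the slope was 0.23, the lowest of the 32 genes, whose median slope was 1.10. The log2 fold change was 0.26 ± 0.11 (SE; edgeR adjusted p = 0.456).

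Slco1c1, a thyroid hormone carrier of brain endothelium and astrocytes, was the most abundant gene of the set and ran against it (r = −0.64, slope −0.19). Its levels were 265, 272 and 289 FPKM in vehicle and 188, 237 and 289 FPKM in STZ. STZ 1, the highest sample for 34 of the 36 genes, was the lowest for Slco1c1, and STZ 3 was level with vehicle 3. The sample numbers imply no order. In vehicle, Slco1c1 and the set were both lowest in sample 1 and highest in sample 3. In STZ, the set was highest in sample 1 and lowest in sample 3, and Slco1c1 was the reverse. Centred within the groups, its correlation with the others was −0.32. It was the only gene of the set with a negative log2 fold change, −0.26 ± 0.16 (SE; edgeR adjusted p = 0.551). The mean centred log2 CPM of the 8 astrocyte markers was 0.16, 0.02 and 0.07 in vehicle. In STZ it was −0.09, −0.03 and −0.13, lowest in STZ 3 and next lowest in STZ 1. This mean had a correlation of −0.73 with the mean of the genes that followed the pattern, the same sign as for Slco1c1. The relation of these markers to Slco1c1 was not tested.

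Slc7a5, the carrier of large neutral amino acids, departed as well (r = 0.626). Its levels were 13.8, 12.1 and 14.7 FPKM in vehicle and 23.4, 16.2 and 11.7 FPKM in STZ. STZ 1 stood apart and STZ 3 was the lowest of all samples. The log2 fold change was 0.27 ± 0.22 (SE; edgeR adjusted p = 0.659), and without STZ 1 it was −0.0067. Of the 5 transporters, the 3 with means above 10 FPKM in both groups (Slco1c1, Mfsd2a and Slc7a5) had the 3 lowest slopes, and Slco1a4 and Abcb1a had slopes of 0.94 and 1.08.

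**Figure D4:**
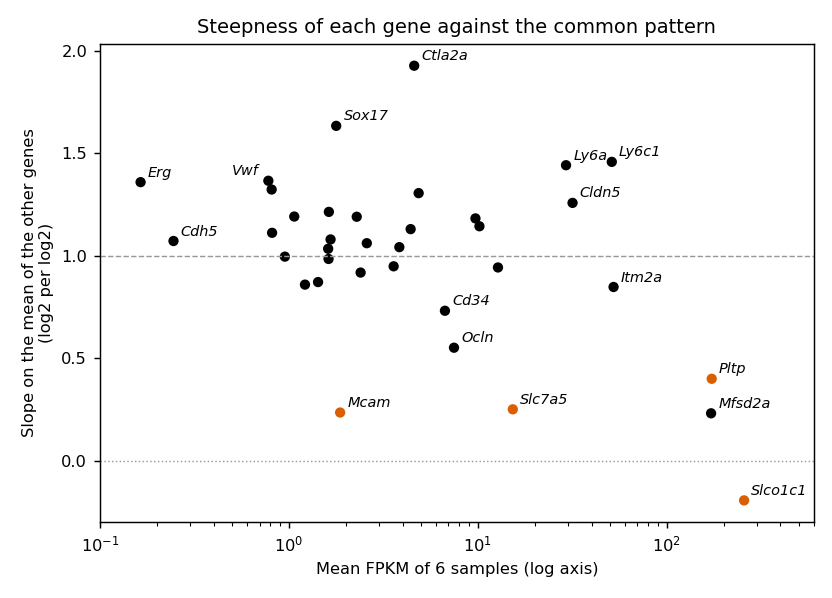
Slope of each gene's log2 CPM on the mean of the other genes (y axis, log2 per log2) against its mean level in FPKM (x axis, log axis), with orange points for the 4 genes whose correlation was under 0.8. Slopes lie between −0.19 for Slco1c1 and 1.93 for Ctla2a, and the 3 most abundant genes all lie at 0.40 or below.

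Further genes of endothelium and barrier, listed by role, were read in the same way, and edgeR called 0 genes in each of these lists. Genes of these lists can also be expressed by other cells of the samples, which was not tested. Over all 22337 tested genes, 1257 were higher and 1262 lower at an unadjusted edgeR p under 0.05, and DESeq2 called 0.654% higher. Of 39 further pan-endothelial genes tested, 17 were higher and 1 lower at an unadjusted edgeR p under 0.05, DESeq2 called 5 higher, and the median log2 fold change was 0.69. The 5 were Rasip1, Klf4, Acvrl1, Ecscr and Abcg2, which serve vessel lumen formation, flow-responsive transcription, endothelial BMP signaling, endothelial migration and drug efflux. Rasip1 measured 0.908, 1.20 and 1.85 FPKM in vehicle and 3.73, 2.90 and 2.33 FPKM in STZ, without overlap (edgeR adjusted p = 0.289, DESeq2 adjusted p = 0.0056). Notch4 measured 1.32, 1.21 and 1.27 FPKM in vehicle and 2.06, 1.91 and 1.75 FPKM in STZ, without the high value in vehicle 3, and its fold change was under the limit of 1.5 (log2 fold change 0.52, edgeR adjusted p = 0.261, DESeq2 adjusted p = 0.020). Of the 39 genes, 27 had a correlation of at least 0.8 with the set of 32, as had 1965 of 22301 tested genes outside the set. The 3 most abundant of the list, Bsg, S1pr1 and Rapgef3, are genes that astrocytes also express. They had correlations of 0.377, −0.90 and −0.31 with the set, and S1pr1, at 995 ± 107 FPKM in vehicle and 790 ± 92.7 FPKM in STZ (SD, n = 3), was the gene that was lower (edgeR adjusted p = 0.371).

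Of 17 further barrier transporters, 5 were higher at an unadjusted edgeR p under 0.05 and DESeq2 called 3. The taurine carrier Slc6a6 measured 3.70, 3.83 and 7.06 FPKM in vehicle and 11.7, 10.1 and 8.07 FPKM in STZ, without overlap (log2 fold change 0.97, edgeR adjusted p = 0.301, DESeq2 adjusted p = 0.0052). The cationic amino acid carrier Slc7a1 and the efflux pump Abcg2 had log2 fold changes of 0.66 and 0.99 (DESeq2 adjusted p = 0.046 and 0.044). Abcg2 also stands in the pan-endothelial list and is counted in both lists. Among the most abundant were Slc3a2, the partner chain of Slc7a5, Slc2a1, the glucose carrier of the barrier, and Slc16a1, a lactate carrier. Slc2a1 measured 201, 191 and 227 FPKM in vehicle and 279, 252 and 256 FPKM in STZ, without overlap but not called (log2 fold change 0.29, edgeR adjusted p = 0.347). Slc3a2 and Slc16a1 had log2 fold changes of −0.15 and 0.08.

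As a list, the 15 other junction genes did not share the pattern of Cldn5. Their median log2 fold change was −0.03, 0 were higher and 2 were lower at an unadjusted edgeR p under 0.05, and 1 of 15 had a correlation of at least 0.8 with the set, namely Lsr, a protein of tricellular junctions (r = 0.937). Jam2, a junctional adhesion molecule, measured 54.4, 41.5 and 45.0 FPKM in vehicle and 35.8, 38.6 and 37.9 FPKM in STZ (edgeR adjusted p = 0.306). Tjp1, the scaffold protein ZO-1, measured 8.19 ± 0.79 FPKM in vehicle and 7.30 ± 0.20 FPKM in STZ (SD, n = 3; edgeR adjusted p = 0.407). Cdh2 and Ctnnb1, the abundant N-cadherin and beta-catenin, had log2 fold changes of −0.06 and −0.01. Jam2, Jam3, Cdh2 and Ctnnb1 had means of 42.2, 40.1, 43.9 and 42.4 FPKM over the 6 samples, above the 31.7 FPKM of Cldn5. The cells that their RNA came from were not tested, so the list cannot be read as endothelial junctions alone.

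Genes of arteries and veins showed both courses. Of 12 arterial genes tested, 4 were higher at an unadjusted edgeR p under 0.05, and DESeq2 called Fbln5, an elastic fibre protein, and Gja4, a gap junction protein of arterial endothelium. Fbln5 measured 6.60, 9.86 and 15.9 FPKM in vehicle and 44.9, 26.1 and 21.8 FPKM in STZ (DESeq2 adjusted p = 0.0011). Gja4 and its relative Gja5 had log2 fold changes of 1.44 and 0.99 (edgeR adjusted p = 0.302 and 0.301). Hey1 and Mgp, the other abundant genes of the list, had log2 fold changes of 0.16 and 1.53. Of 9 venous genes tested, 2 were higher and 1 was lower. Tmem252 was called by DESeq2, at 0.335 ± 0.22 FPKM in vehicle and 1.39 ± 0.13 FPKM in STZ (SD, n = 3; DESeq2 adjusted p = 0.00022, edgeR adjusted p = 0.231). Flt4, a lymphatic and venous receptor, was the other higher one, with a log2 fold change of 1.41 at a very low level (edgeR adjusted p = 0.401). Vcam1, a leukocyte adhesion molecule, was the lower one, at 146 ± 7.58 FPKM in vehicle and 114 ± 21.0 FPKM in STZ (SD, n = 3; edgeR adjusted p = 0.356). Lrg1 and Ephb4, also abundant in this list, had log2 fold changes of 1.33 and −0.19. Icam1, Vcam1, Sele, Selp and Lrg1 stand in both the venous list and the list of endothelial activation genes. Of 11 endothelial activation genes, Ch25h was higher and Vcam1 lower at an unadjusted edgeR p under 0.05, and DESeq2 called 0. Lcn2 and Lrg1, the other abundant ones, followed the set (r = 0.956 and 0.971), and Apold1, with the next lowest p, had a log2 fold change of 0.95.

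Markers of other cells of the vessel wall varied with the set. Of 9 pericyte markers tested, 3 were higher at an unadjusted edgeR p under 0.05 and were called by DESeq2 (Higd1b, Ndufa4l2 and Rgs5), and their summed level over the whole list was 34.7 to 53.8 FPKM in vehicle and 41.8 to 60.7 FPKM in STZ. Of 7 markers of vascular smooth muscle, 4 were so (Acta2, Myl9, Myh11 and Tagln), with sums of 20.0 to 30.0 FPKM in vehicle and 53.5 to 71.7 FPKM in STZ. Tagln measured 0.345, 0.486 and 0.680 FPKM in vehicle and 3.75, 3.02 and 3.23 FPKM in STZ (log2 fold change 2.65, edgeR adjusted p = 0.072, DESeq2 adjusted p = 7.3e-17). The smooth muscle markers separated vehicle 3 from STZ 3, unlike the endothelial set: their mean centred log2 CPM was −0.41 in vehicle 3 and 0.56 in STZ 3. Defining markers of both lists were above 0 in all samples except Anpep. Of 8 blood markers, 0 were called, and their sum of 150, 159 and 846 FPKM in vehicle and 1137, 1207 and 551 FPKM in STZ, mostly S100a8 and S100a9 of neutrophils, was also low in vehicle 1 and 2. Fibroblast, microglia, oligodendrocyte, neuron and choroid plexus markers had 0 genes at an unadjusted edgeR p under 0.05 and 0 called by DESeq2. Of 8 astrocyte markers, 0 were higher and 3 lower at that level (Aqp4, Slc7a10 and Aldh1l1). Among all 22337 tested genes, 1257 were higher and 1262 lower at that level, and DESeq2 called 0.654% higher. The part of these other cells in the endothelial values was not tested.

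**Figure D5:**
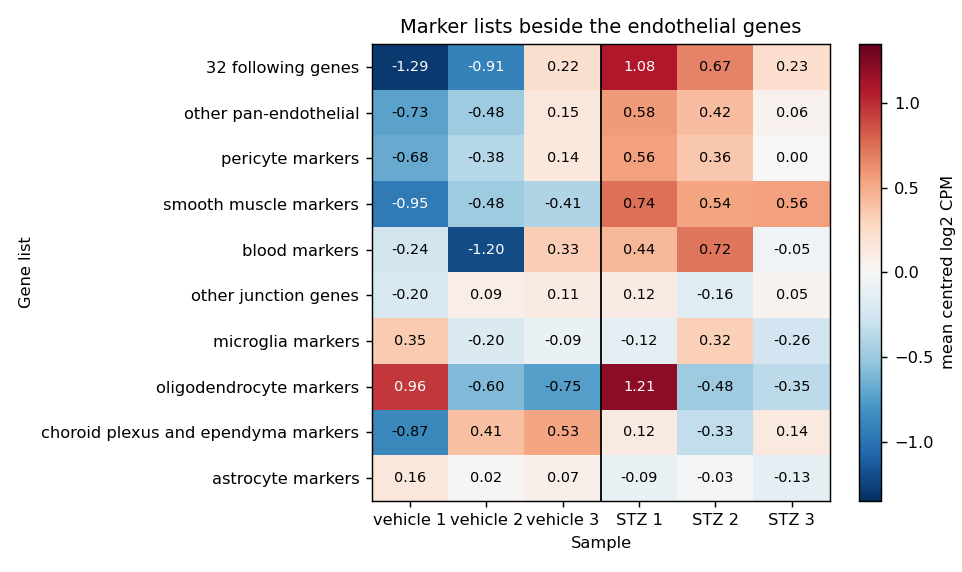
Mean centred log2 CPM of the 32 following genes and of 9 other gene lists (rows, y axis) in each sample (columns, x axis), with the value printed in each cell and red for above and blue for below the mean over the 6 samples. Like the first row, the pan-endothelial and pericyte rows are lowest in vehicle 1 and 2 and highest in STZ 1, at a smaller span and with vehicle 3 just above STZ 3, whereas the rows of other junction genes and astrocyte markers stay between −0.20 and 0.16.

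The 10 genes outside the set whose log2 CPM was most like its mean, among 16217 with a mean of at least 1 CPM, had correlations from 0.992 to 0.9997. They were Gm6724, Stmnd1, Foxq1, Chek2, Acvrl1, Ccm2l, Bst1, Tgif1, Elane and St3gal6. Foxq1 and Acvrl1 also stand in the pan-endothelial list. Elane, the elastase of neutrophils, measured 0.479, 1.04 and 5.23 FPKM in vehicle and 18.0, 6.86 and 4.39 FPKM in STZ. Of the 16217 genes, 1498 (9.24%) had a correlation of at least 0.8.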

How the data were processed

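Counts, FPKM and TPM per gene were analysed for 3 vehicle and 3 STZ samples, grouped by the sample labels. The deposited read counts are whole numbers per gene without normalization. The FPKM and TPM values were made by the authors with StringTie and are scaled for transcript length and mapped reads. Per the submitters' processing notes, reads were trimmed with Trimmomatic 0.38, aligned to mm10 with HISAT2 2.1.0 and quantified with StringTie 2.1.3b. The annotation release and the strand setting are not given in the sources used here. The study's removal of outlier genes was not repeated.

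The 36 genes and all gene lists were chosen with earlier results of these data known. Genes with a count above 0 in all 6 samples entered the two-sided quasi-likelihood test of edgeR 4.0.16 (R 4.3.3, TMM, no factor but group) and Benjamini-Hochberg adjustment over all 22337. A call needs a fold change over 1.5 with adjusted p under 0.05. Centred values are log2 CPM (TMM, prior count 2). A gene departs when its correlation with the mean of the other members, the gene itself left out, is under 0.8. Values per sample are given for departing genes, the 8 of highest mean FPKM and the one of smallest edgeR p in each role group. Of other lists, called genes, the 3 of highest FPKM and the 3 of smallest p are named. Alternatives were DESeq2 1.42.0, its size factors in edgeR, other filters and thresholds, limma 3.58.1 on log2(TPM + 1) and log2(TPM + 0.1), FPKM scale, the replicate block and leaving out each sample. Figures and tables used Python 3.11.15, numpy 2.4.6 and pandas 2.3.3. The procedure was tested on simulated counts. P-values measure the spread between pools, and floors cover counting error only. The total counts leave little counting error except for genes such as Erg and Cdh5.

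The replicate numbers do not pair the samples: the deviations of same-numbered samples from their group means had correlations of −0.10, −0.16 and −0.18 across genes. Promoters were RefSeq windows of GRCm38.p6. Other experiments of the study were not analysed here.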

Additional observations from a re-analysis of the deposited data

How the results depend on the processing

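The number of genes called was 0 under every edgeR and limma alternative and under both other thresholds, and 7 under DESeq2. Leaving out each sample in turn gave 0 calls in edgeR, 9 to 32 genes at an unadjusted p under 0.05 and median log2 fold changes of 0.89 to 1.74. The median was 1.74 without vehicle sample 3, against 1.14 with all samples. The number called by DESeq2 ran from 0 (without vehicle 2 or STZ 1) to 31 (without vehicle 3); these DESeq2 fits were chosen after seeing the data. The other alternatives gave 24 to 30 genes at an unadjusted p under 0.05 and medians of 0.97 to 1.28.

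With the replicate number as a block, which does not reflect a pairing of the pools, 0 genes were called, 24 had an unadjusted p under 0.05 and the median log2 fold change was 1.28. Not overlapping were 18 genes on FPKM and 19 on CPM without TMM, against 17. Departing genes numbered 3 on log2 FPKM and 5 with centring within groups, against 4.

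Of 468 alternative values for single genes, 459 kept their direction and their side of the threshold, 7 passed the threshold under DESeq2 and 2 reversed. The log2 fold change of Pltp ran from −0.019 (without vehicle 1) to 0.50 over the left-out samples, and that of Slc7a5 from −0.0067 (without STZ 1) to 0.48.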
